A study of Mus musculus with 2 samples.

Results

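Genes of the transforming growth factor beta (TGF-beta) pathway were examined in cells of the mouse peritoneal cavity: the ligands Tgfb1 and Tgfb2, the latency protein Ltbp1, the receptors Tgfbr1 and Tgfbr2, and the signal genes Smad3, Smad7, Ski and Runx3. These 9 of the 28692 genes in the files were chosen by symbol and followed through 6 cell gates, to see which cells carried RNA for the ligands and which for the receptors and signal genes. Droplet 3′ single-cell RNA sequencing compared a wild-type (WT) library with an Xbp1dIEC library. All mice were germ-free, that is without microbes, male, of the C57BL/6 strain and 10 weeks old, and each library pooled cells of 4 mice of its genotype. Xbp1dIEC mice lack Xbp1 in epithelial cells of the intestine. Xbp1 encodes a transcription factor that answers stress of the endoplasmic reticulum. The cells measured here are not the cells that carry the deletion, so Xbp1 RNA in them does not check the genotype. It stood at 109 CPM (counts scaled to the total of the gate) in WT macrophages and 118 CPM in Xbp1dIEC macrophages. The driver of the deletion is not given in the labels.

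With 1 pooled library per genotype, no difference between genotypes has a replicate check and no test was made. Every interval is a 95% interval that covers counting error only. A level in CPM is the number of unique molecular identifiers (UMIs) of a gene per 1000000 UMIs of its gate, with an exact Poisson interval. A difference between genotypes is the log2 ratio of Xbp1dIEC over WT after adding 1 CPM, with an exact conditional binomial interval. A ratio was read where a gene had 20 or more UMIs over both libraries, and it was called higher or lower past 1.5-fold.

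The libraries held 6204 WT and 6246 Xbp1dIEC barcodes with a median of 8323.5 and 7279.5 UMIs, and 6058 and 6113 cells were kept. Barcode sequences found in both libraries numbered 58. Macrophages were gated by resident macrophage genes such as Adgre1, Gata6 and Timd4 or by Folr2 and Retnla, and numbered 3086 in WT and 3163 in Xbp1dIEC. Cd209a cells, myeloid cells with 2 or more Cd209a UMIs, numbered 62 and 69. B-1 cells, the innate-like B cells of the body cavities, numbered 668 and 1082. B-2 cells, the conventional B cells, numbered 780 and 594. T cells numbered 274 and 226, and NK cells only 21 and 29. A further 1167 and 950 cells fell in no gate or in more than 1. Genes not used for gating marked the gates: Prg4, a lubricating glycoprotein of cavity macrophages, stood at 1992 and 2169 CPM in macrophages and at no more than 65.0 CPM elsewhere. The class II gene H2-Ab1 was highest in Cd209a cells, Ebf1 in B cells, Trac in T cells and Nkg7 in NK cells. Not every check marker was highest in its own gate. Tyrobp, an NK check marker, had 5228 and 5317 CPM in macrophages against 2795 and 3303 CPM in NK cells. In WT, Ccr7 had 330 CPM in T and 282 CPM in B-2 cells. Cd28 had 200 CPM in NK and 157 CPM in T cells of WT. In Xbp1dIEC, Trbc1 had 566 CPM in T and 577 CPM in NK cells. Napsa there had 642 CPM in Cd209a and 677 CPM in B-1 cells. Spn was higher in Cd209a, T and NK cells than in B-1 cells. Between the B gates, Spn, Fbxw13 and Ahnak2 were higher in B-1 cells, and Fcmr, Cxcr5, Ccr7 and Cd55 in B-2 cells, in both libraries. The T gate held some class II RNA, with H2-Ab1 at 970 CPM in WT and 1371 CPM in Xbp1dIEC. Median UMIs per macrophage were 9563.5 in WT and 7707 in Xbp1dIEC, and their median mitochondrial share was 2.96% and 3.46%.

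TGF-beta ligands are secreted in a latent form, wrapped in their own propeptide, which Ltbp1 can tether to the matrix. Once released, a ligand binds the type II receptor Tgfbr2, which activates the type I receptor Tgfbr1, and this phosphorylates Smad3. Smad3 then acts on target genes with partners such as Runx3. Smad7 blocks the activated receptor and Ski holds Smad complexes inactive, so both are brakes on the signal. In the peritoneal cavity TGF-beta2 is known as a product of the Gata6-dependent resident macrophages and has been tied to class switching of B-1 cells towards IgA, while Runx3 is a known regulator of cytotoxic lymphocytes. Tgfb1 lies at chr7:25687002-25705077, Tgfbr1 at chr4:47353222-47414931, Tgfbr2 at chr9:116084293-116175360, Smad3 at chr9:63646767-63757994, Ski at chr4:155154075-155222592 and Runx3 at chr4:135120652-135177990 (GRCm38, GENCODE). RNA alone was measured here, not secreted, latent or active protein.

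Tgfb2 lies at chr1:186622792-186705989 on the minus strand and Ltbp1 at chr17:75005568-75392512 on the plus strand (GRCm38, GENCODE). They are the members whose RNA was nearly all in macrophages, so the 250 bases before a start site of each are shown, from RefSeq on GRCm38.p6, 5′ to 3′ on the gene's strand. The Tgfb2 window is chr1:186705990-186706239 (minus strand) and the Ltbp1 window is chr17:75005279-75005528 (plus strand), before the more upstream of the RefSeq starts of Ltbp1. A second Ltbp1 window, chr17:75178531-75178780, held none of the motifs. The 30 bases after the start were found in 1 of 6 GENCODE transcripts of Tgfb2 and, for either window, in 0 of 10 of Ltbp1, so the RefSeq starts of Ltbp1 are not those of the GENCODE transcripts. Capitals mark matches to the motifs searched.
Tgfb2: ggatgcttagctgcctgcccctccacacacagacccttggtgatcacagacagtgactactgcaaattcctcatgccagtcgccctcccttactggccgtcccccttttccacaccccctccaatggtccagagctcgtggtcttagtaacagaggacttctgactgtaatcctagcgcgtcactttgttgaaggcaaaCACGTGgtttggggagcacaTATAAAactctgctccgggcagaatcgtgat
Ltbp1: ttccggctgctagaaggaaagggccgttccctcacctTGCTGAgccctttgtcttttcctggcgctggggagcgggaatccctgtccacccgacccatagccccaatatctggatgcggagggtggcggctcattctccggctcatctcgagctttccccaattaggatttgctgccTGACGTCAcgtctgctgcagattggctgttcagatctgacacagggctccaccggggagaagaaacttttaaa

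The motifs searched on both strands were GATAA for GATA factors, AGGTCA for nuclear receptors, TGCTGA for MAF factors and GAGGAAGT for PU.1, which are factors of macrophages. The E-box CACGTG, the cyclic AMP element TGACGTCA and the promoter letters TATAAA were added after the sequences had been read. In the Tgfb2 window CACGTG began 51 bases and TATAAA 31 bases before the start site. In the Ltbp1 window TGCTGA began 213 bases and TGACGTCA 73 bases before it. None of these matches overlapped another. The same letters occur in 6.02% (CACGTG), 12.4% (TATAAA), 16.1% (TGCTGA) and 1.55% (TGACGTCA) of 32851 mouse promoter windows of that length, and none of the remaining motifs was found in either window, with GATAA in 22.6%, AGGTCA in 14.0% and GAGGAAGT in 2.44% of all windows. The counts come from the 3′ ends of transcripts and cannot tell which start site was used.

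The ligands were distributed differently. Tgfb1, the ligand most immune cells make, was found in every gate. It stood at 183 CPM (179 to 188) in WT and 170 CPM (165 to 175) in Xbp1dIEC macrophages, and at 191 and 181 CPM in Cd209a cells. B-2 cells had 134 and 140 CPM, B-1 cells 103 and 98.9 CPM, and T cells 89.6 and 76.3 CPM. NK cells had 10 UMIs in each library, or 133 and 107 CPM. Macrophages and Cd209a cells were not apart, since their intervals overlapped. Macrophages were apart from B-2 cells in both libraries, and B-1 cells lay below B-2 cells in both. Macrophages, which were 50.9% and 51.7% of the kept cells, held 65.2% of all Tgfb1 UMIs in WT and 61.0% in Xbp1dIEC. Ungated cells held 17.7% and 13.6%, and B-1, B-2 and T cells most of the rest.

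Tgfb2 was a macrophage transcript. Its level in macrophages was 128 CPM (124 to 132, 3850 UMIs) in WT and 218 CPM (212 to 224, 5306 UMIs) in Xbp1dIEC. Cd209a cells had 2 and 3 UMIs, B-1 cells 11 and 11, B-2 cells 6 and 7, T cells 1 and 2, and NK cells none in either library, where 3 counts would be 39.9 and 32.1 CPM. The macrophage gate held 87.2% of all Tgfb2 UMIs of the WT library and 91.0% of those of Xbp1dIEC, and ungated cells held most of the remainder (12.3% and 8.58%). In CPM, macrophages had 70.0 times the level of B-1 cells in WT and 214 times in Xbp1dIEC, with lower interval bounds of 39.1 and 119 times.

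Ltbp1 followed the same division. Macrophages had 236 CPM (230 to 241) in WT and 279 CPM (272 to 286) in Xbp1dIEC. Cd209a cells had 13.0 and 14.2 CPM from 6 and 7 UMIs, T cells 10.5 and 5.09 CPM, B-1 cells 7.82 and 4.82 CPM, and B-2 cells 6.62 and 2.05 CPM. NK cells had no UMI in WT and 1 in Xbp1dIEC. Macrophages were apart from every other gate in both libraries for Tgfb2 and for Ltbp1, and the other gates were not apart from their neighbours in the order of levels.

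**Figure D1:**
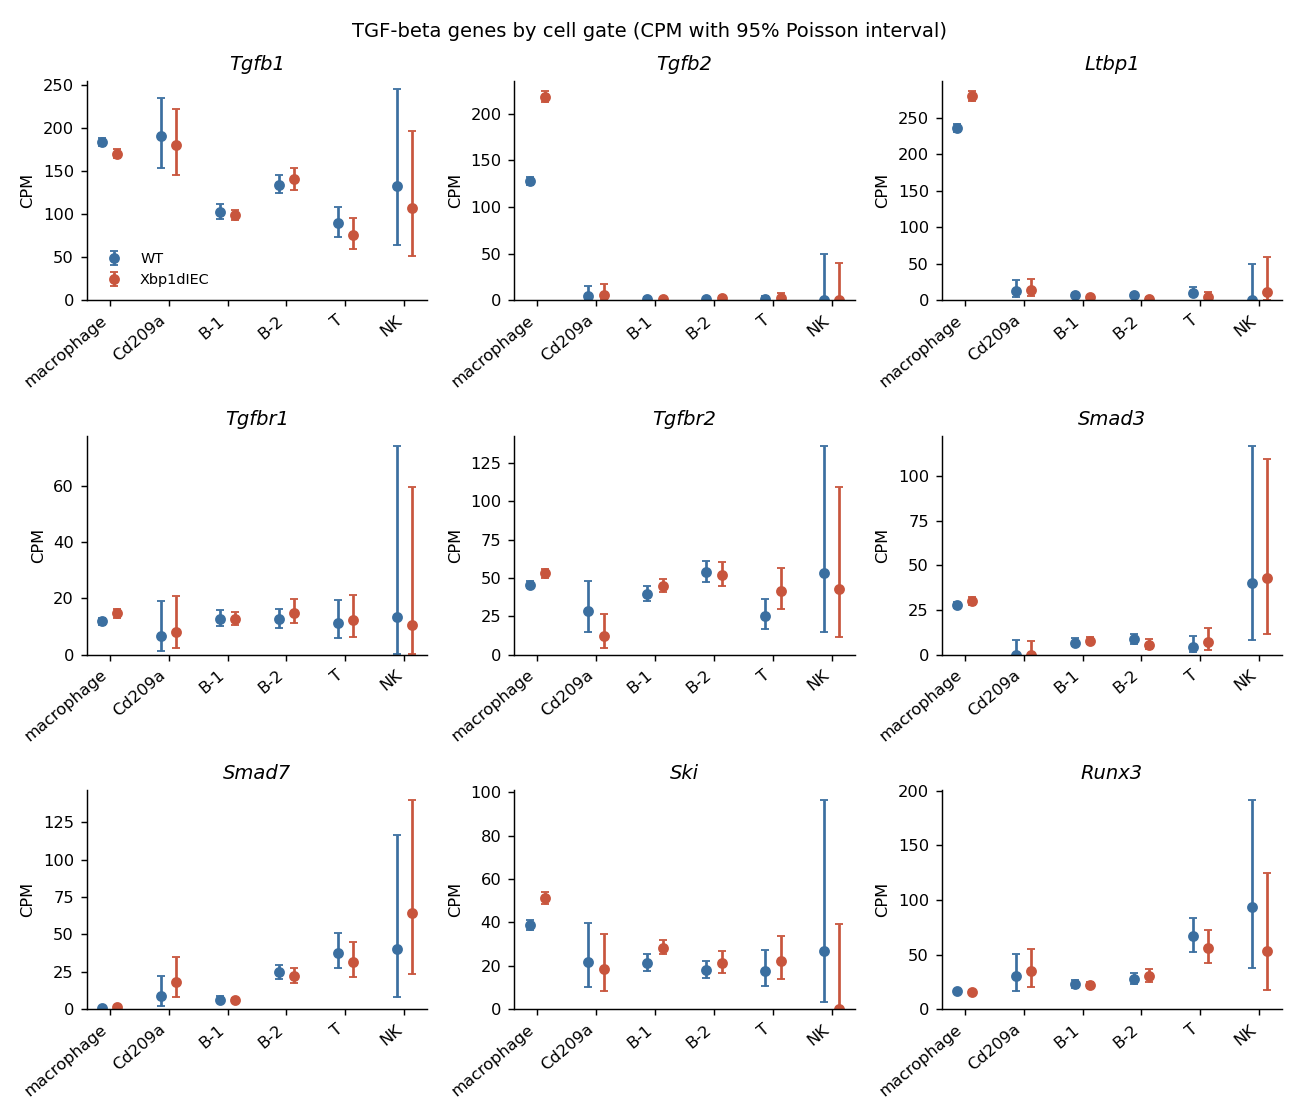
Level of each gene (vertical axis, CPM) in the 6 gates (horizontal axis), WT in blue and Xbp1dIEC in red, with 1 pooled library per genotype; bars are exact 95% Poisson intervals of the count. Tgfb2 and Ltbp1 stand above 100 CPM only in macrophages, Smad7 is lowest there, and the wide NK bars come from gates of 21 and 29 cells.

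The traces of Tgfb2 and Ltbp1 in lymphocytes were set beside those of 9 macrophage marker genes that lymphocytes should lack (Fn1, Prg4, Apoe, C1qa, C1qb, C1qc, Lyz2, Cd5l and Marco). In WT these markers stood in B-1 cells at 1.73% to 6.09% of their macrophage level, with a median of 2.41%, and in Xbp1dIEC at 1.20% to 3.35%, with a median of 1.60%. Tgfb2 in B-1 cells stood at 1.43% (0.71 to 2.56) and 0.47% (0.23 to 0.84) of its macrophage level, below the lowest marker in each library. Ltbp1 stood at 3.32% (2.44 to 4.41) and 1.73% (1.29 to 2.27), inside the range of the markers. In B-2 and T cells Tgfb2 lay between 0.69% and 1.00%, and Ltbp1 between 0.74% and 4.47%. Lying within or below the range of the markers, these traces are not read as lymphocyte expression, and their source was not tested. Tgfb1, at 44.9% to 82.5% of its macrophage level in B-1, B-2 and T cells, lay far above that range. Smad3 in B cells, at 18.5% to 30.9%, did too.

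**Figure D2:**
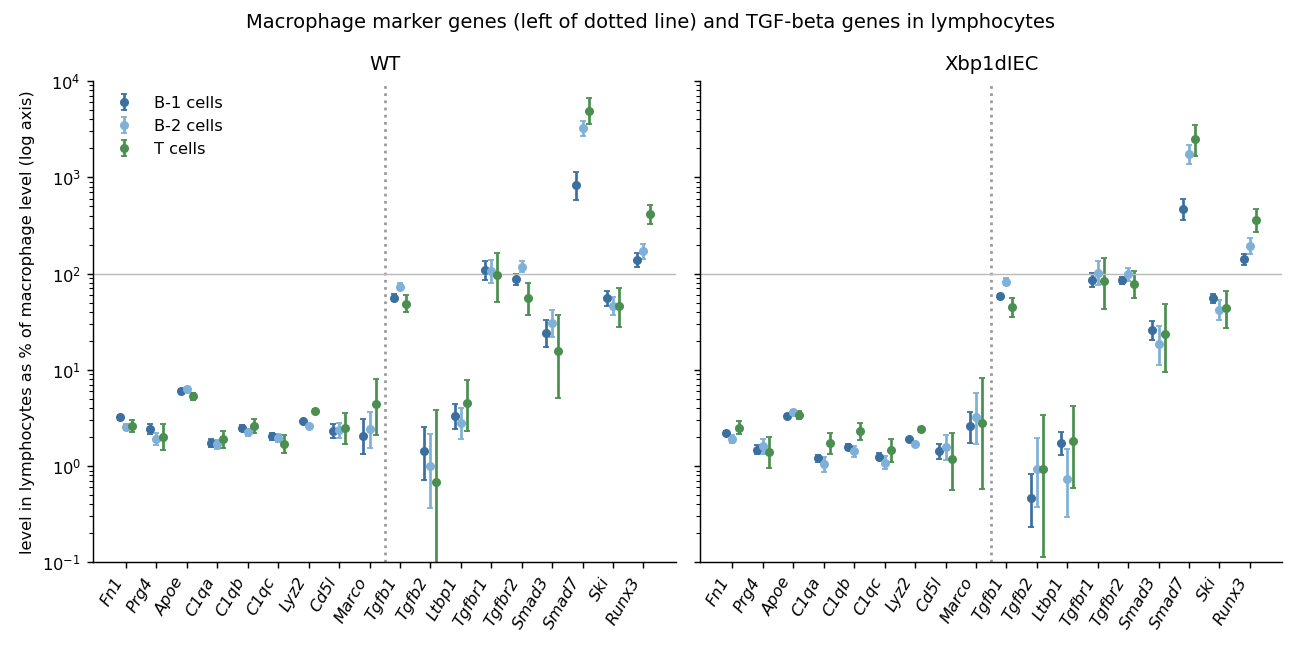
Level in B-1, B-2 and T cells as a percent of the level in macrophages of the same library (vertical axis, log scale) for 9 macrophage markers and the 9 TGF-beta genes, with 95% counting intervals. Tgfb2 and Ltbp1 lie within or below the markers' range of 1.05% to 6.34%, Tgfb1 and Smad3 lie above it, and Smad7 and Runx3 exceed 100% in all 3 gates.

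Between genotypes, Tgfb2 in macrophages gave the largest member ratio past 1.5-fold on the higher side. The log2 ratio was 0.76 (0.71 to 0.83), a 1.70-fold higher level in the Xbp1dIEC library. Of 11621 genes measured in macrophages, 26 were higher by 1.5-fold (0.224%) and 269 lower (2.31%), and 99.9% of genes had a lower ratio than Tgfb2. The median over all genes was -0.05. Of the 9 genes, Tgfb2 alone was called in macrophages. The ratio lay between 0.69 and 0.82 under the 10 alternatives tried, with the lowest value when cells with 5% or more mitochondrial UMIs were left out. Whether the difference comes from genotype or from the pair of pools cannot be told apart.

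In macrophages the latency gene Ltbp1 and the ligand gene Tgfb1 differed less. The Ltbp1 ratio was 0.24 (0.19 to 0.29) and the Tgfb1 ratio was -0.11 (-0.17 to -0.05). Within the macrophage gate, then, Tgfb2 was higher and Ltbp1 slightly higher in the Xbp1dIEC library, both past counting error, but Ltbp1 not past 1.5-fold. Tgfb1 was slightly lower, also within 1.5-fold. Its interval excluded 0 but, with an upper end of -0.050, held the median of all genes, -0.054. The share of genes with a lower ratio was 92.0% for Ltbp1 and 40.1% for Tgfb1.

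Cell by cell, the Tgfb2 difference was seen in the share of cells with a UMI and in the number of UMIs per cell. After each cell was thinned to 2000 UMIs, 21.5% of WT macrophages (Clopper-Pearson interval 20.1 to 23.0) and 31.3% of Xbp1dIEC macrophages (29.7 to 32.9) had a Tgfb2 UMI. Unthinned, the shares were 47.9% and 57.0%. In B-1 cells, at median depths of 7740.5 and 8308.5 UMIs, the unthinned shares were 1.65% and 1.02%. Macrophages with 3 or more Tgfb2 UMIs among 2000 were 1.56% in WT and 3.83% in Xbp1dIEC. For Ltbp1 the thinned shares with a UMI were 35.8% and 39.7%, and for Tgfb1 29.3% and 27.1%.

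**Figure D3:**
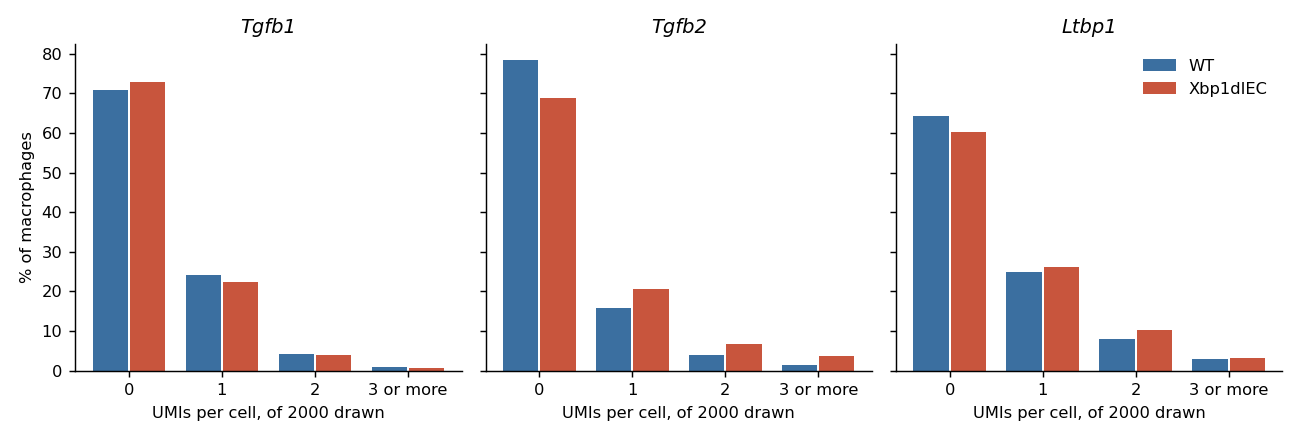
Percent of macrophages (vertical axis, from 0) with 0, 1, 2 or 3 or more UMIs of Tgfb1, Tgfb2 and Ltbp1 after every cell was thinned to 2000 UMIs (horizontal axis), WT in blue and Xbp1dIEC in red. For Tgfb2 the class without a UMI is smaller in Xbp1dIEC (68.7% against 78.5%), and each class with UMIs is larger.

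Tgfb2 and Ltbp1 RNA tended to be found in the same macrophages, and more of the Tgfb2-positive cells had Ltbp1. After thinning, Ltbp1 was found in 42.3% of Tgfb2-positive and 34.0% of Tgfb2-negative WT macrophages, and in 49.5% and 35.3% in Xbp1dIEC. All macrophages were counted, including those marked by Folr2 and Retnla, which had little of either RNA (below). Their part in this difference was not tested. Tgfb1 showed no such difference: Ltbp1 was found in 36.2% of Tgfb1-positive and 35.7% of Tgfb1-negative macrophages in WT, and in 39.5% and 39.8% in Xbp1dIEC. In a split by Ltbp1 UMIs, chosen after the data were seen, Tgfb2 was 117 CPM in WT and 185 CPM in Xbp1dIEC without an Ltbp1 UMI. It was 164 and 285 CPM with 2 or more.

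Macrophages were not uniform in Tgfb2. The 146 WT and 147 Xbp1dIEC macrophages marked by Folr2 and Retnla rather than Gata6, Timd4 and Alox15 had 9.72 CPM (5.02 to 17.0) and 7.33 CPM (2.95 to 15.1) of Tgfb2, against 133 and 227 CPM in the other macrophages. They also had little Ltbp1, 15.4 and 11.5 CPM against 245 and 290 CPM. Their Tgfb1 was close to that of the rest, at 159 and 150 CPM against 184 and 171 CPM. Tgfb2 was higher in Gata6-positive cells, a split also chosen after the data were seen, with 123 and 210 CPM without a Gata6 UMI and 156 and 268 CPM with 1.

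Tgfb2 was also higher in macrophages with more Cxcl13, a chemokine that attracts B cells. Without a Cxcl13 UMI in 2000 it was 113 CPM in WT and 194 CPM in Xbp1dIEC. With 1 UMI it was 159 and 247 CPM, and with 2 or more it was 192 and 295 CPM. Cells with 2 or more Cxcl13 UMIs were 15.9% of WT and 21.3% of Xbp1dIEC macrophages. Inside these classes the ratio between libraries was 0.78 (0.71 to 0.86), 0.63 (0.43 to 0.84) and 0.62 (0.50 to 0.74). With the Xbp1dIEC classes weighted to the WT shares it was 0.73.

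Cell cycle genes went the other way from Tgfb2. Macrophages with 2 or more UMIs of the cycle list were 36.0% in WT and 26.6% in Xbp1dIEC, and they had less Tgfb2, 111 and 181 CPM, than the others, with 139 and 233 CPM. The Tgfb2 ratio was 0.70 (0.59 to 0.82) in the first and 0.74 (0.67 to 0.81) in the second class, and 0.72 at the WT shares.

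**Figure D4:**
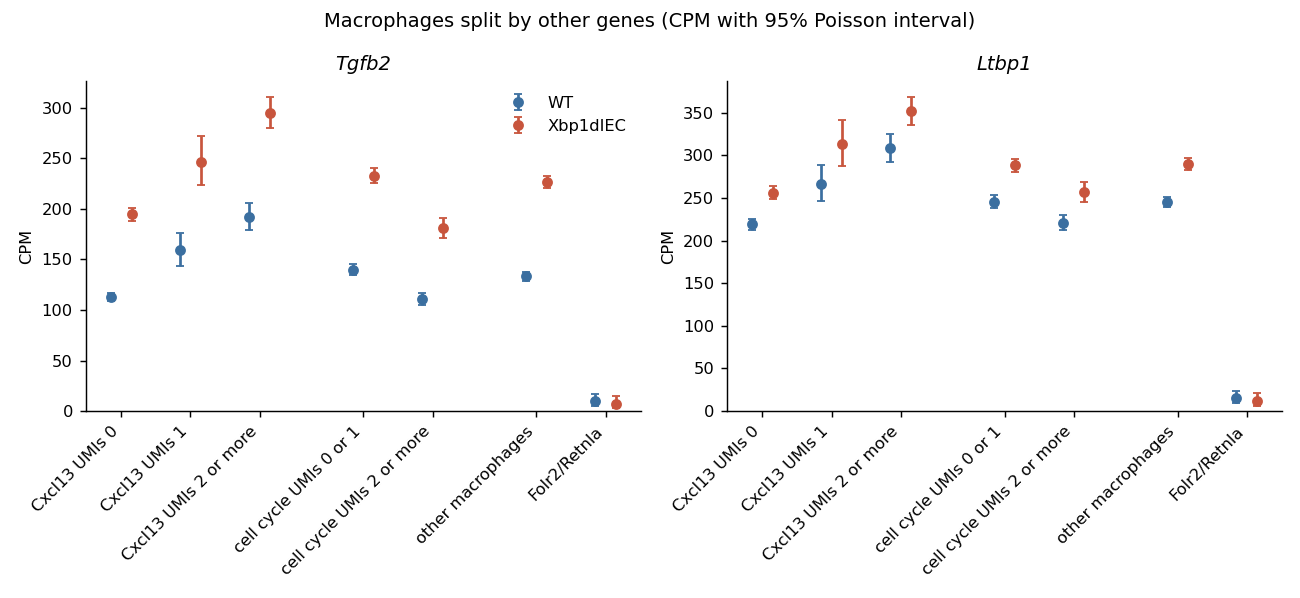
Level of Tgfb2 and Ltbp1 (vertical axis, CPM) in macrophages split by Cxcl13 UMIs, by cell cycle UMIs and by Folr2 and Retnla (horizontal axis), WT in blue and Xbp1dIEC in red, with 95% Poisson intervals. Tgfb2 is higher in Xbp1dIEC in every class except the Folr2 and Retnla cells, where both libraries are under 10 CPM.

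Outside macrophages the Tgfb1 ratios were small, and those of Tgfb2 and Ltbp1 rested on few UMIs. The Tgfb1 ratio was -0.06 (-0.20 to 0.09) in B-1, 0.06 (-0.11 to 0.24) in B-2, -0.23 (-0.68 to 0.21) in T, -0.31 (-1.74 to 1.10) in NK and -0.08 (-0.52 to 0.36) in Cd209a cells. The Tgfb2 ratio in B-1 cells, from 11 UMIs in each library, was -0.49 (-2.19 to 0.50). Ltbp1 was called lower in B-1 cells, at -0.60 (-1.29 to -0.10), and in B-2 cells, at -1.32 (-3.12 to -0.48), from 47 and 52 and from 31 and 7 UMIs. The backgrounds there were 3.36% higher and 3.3% lower in B-1, and 3.13% and 3.7% in B-2 cells. The median of the macrophage markers in B-2 cells was 2.36% of the macrophage level in WT and 1.61% in Xbp1dIEC. Not every marker was lower: Marco stood at 2.45% and 3.26%, from 23 and 12 UMIs. Ltbp1 itself stood in B-2 cells at 2.81% in WT and 0.74% in Xbp1dIEC. These percents are of the macrophage level in the same library, unlike the log2 ratios between libraries. Under the 10 alternatives the B-1 ratio of Ltbp1 ran from -0.73 to 0.38, turned with stricter gates and was within 1.5-fold under several. The B-2 ratio stayed below 0 in all 10, from -1.50 to -0.46, and was within 1.5-fold only with 10 CPM added. The part of free macrophage RNA in these ratios was not tested.

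The receptors were spread across the gates. Tgfbr2, which binds the ligand, stood at 53.8 CPM (47.4 to 60.9) in WT and 52.2 CPM (44.8 to 60.5) in Xbp1dIEC B-2 cells, at 45.6 and 53.1 CPM in macrophages, and at 39.6 and 45.1 CPM in B-1 cells. T cells had 25.5 CPM (17.1 to 36.6) and 41.7 CPM (29.9 to 56.6), from 29 and 41 UMIs. Cd209a cells had 13 and 6 UMIs, or 28.2 and 12.2 CPM, and NK cells 4 and 4 UMIs. The Cd209a level was 0.52 times (0.28 to 0.91) that of B-2 cells in WT and 0.23 times (0.08 to 0.52) in Xbp1dIEC. The Poisson intervals of these 2 gates overlapped in WT. No gate was apart from its neighbour in the order of Tgfbr2 levels, in both libraries.

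Tgfbr1, the kinase that signals onward, was also even. Macrophages had 11.9 and 14.7 CPM, B-1 cells 12.8 and 12.7 CPM, B-2 cells 12.6 and 15.0 CPM, and T cells 11.4 and 12.2 CPM. Cd209a cells had 3 and 4 UMIs and NK cells 1 and 1. Both receptors were seen together in 3.92% of WT and 3.57% of Xbp1dIEC macrophages, 4.04% and 5.64% of B-1 cells, and 2.69% and 2.53% of B-2 cells, without thinning. In T cells that was 0.36% of 274 cells in WT and 0 of 226 cells in Xbp1dIEC, where 3 cells would be 1.33%. With so few UMIs per cell these shares are limited by depth, and a cell without a UMI is not shown to lack the receptor.

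Receptor ratios between genotypes were mostly small. In macrophages they were 0.28 (0.09 to 0.52) for Tgfbr1 and 0.22 (0.11 to 0.33) for Tgfbr2, both past counting error and under 1.5-fold. In B-1 cells Tgfbr2 gave 0.18 (-0.04 to 0.42) and in B-2 cells -0.04 (-0.33 to 0.24). In T cells Tgfbr2 was called higher at 0.69 (-0.01 to 1.45), in a gate where 7.15% of 6409 genes were called higher and 7.02% lower. That interval reaches 0, so the T cell difference is within counting error. The Tgfbr1 ratios in B-1, B-2 and T cells were -0.01, 0.23 and 0.09, each with an interval across 0.

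Smad3, the signal carrier, was higher in macrophages than in B or T cells. Macrophages had 27.7 CPM (25.8 to 29.6) and 30.1 CPM (28.0 to 32.4), B-1 cells 6.65 and 7.79 CPM, B-2 cells 8.54 and 5.58 CPM, and T cells 4.39 and 7.12 CPM. In Cd209a cells no Smad3 UMI was found in either library, where 3 counts would be 6.50 CPM in WT and 6.09 CPM in Xbp1dIEC. NK cells had 3 and 4 UMIs, or 39.9 CPM (8.24 to 117) and 42.8 CPM (11.7 to 109). These were the highest point values, but not apart from macrophages. The macrophage level was 4.16 and 3.87 times that of B-1 cells, and 3.24 and 5.41 times that of B-2 cells. Inside the macrophage gate the Folr2 and Retnla cells had 14.6 and 13.6 CPM.

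Smad7, the inhibitor that the pathway itself induces, was distributed the other way. Macrophages had 23 UMIs in WT and 31 in Xbp1dIEC, or 0.77 CPM (0.49 to 1.15) and 1.27 CPM (0.87 to 1.81). B-1 cells had 6.32 and 5.94 CPM, B-2 cells 24.8 and 22.0 CPM, and T cells 37.8 and 31.5 CPM. NK cells had 3 and 6 UMIs, or 39.9 CPM (8.24 to 117) and 64.1 CPM (23.5 to 140). These were the highest point values, but not apart from T cells. Cd209a cells had 4 and 9 UMIs. B-1 cells were apart from macrophages and from B-2 cells in both libraries. The macrophage level was 3.09% of the B-2 level in WT and 5.79% in Xbp1dIEC. For comparison, the B cell check genes stood in macrophages at 0.30% (Ebf1) to 1.47% (Cd22) of their B-2 level in WT. In Xbp1dIEC they stood at 0.29% (Ebf1) to 1.34% (Cd22). Igkc was at 1.05% and 0.92%. Cd8-positive T cells had 30.1 and 28.3 CPM of Smad7, and Cd8-negative ones 42.4 and 33.3 CPM.

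Ski, the brake on Smad complexes in the nucleus, was highest in macrophages, at 38.6 CPM (36.4 to 40.9) in WT and 51.1 CPM (48.3 to 54.1) in Xbp1dIEC. B-1 cells had 21.3 and 28.3 CPM, B-2 cells 17.9 and 21.4 CPM, T cells 17.6 and 22.4 CPM, and Cd209a cells 21.7 and 18.3 CPM. The NK gate had 2 UMIs and none. The Folr2 and Retnla macrophages had 48.6 and 66.0 CPM.

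Runx3 was highest in T and NK cells. T cells had 66.8 CPM (52.6 to 83.6) and 56.0 CPM (42.2 to 72.8), and NK cells 93.2 and 53.5 CPM from 7 and 5 UMIs. Cd209a cells had 30.3 and 34.5 CPM, B-2 cells 27.8 and 30.2 CPM, B-1 cells 22.6 and 22.0 CPM, and macrophages 16.2 and 15.6 CPM. T cells were apart from B-2 cells, and B-1 cells from macrophages, in both libraries. With cells of 2 or more cell cycle UMIs left out, Cd209a cells (49) stood above T cells (100) in Xbp1dIEC. Among T cells, the Cd8-positive ones (90 and 70 cells) had 90.4 and 62.3 CPM of Runx3. The Cd8-negative ones (184 and 156 cells) had 52.3 and 52.4 CPM, and the difference between these classes was not tested. Runx3 is a known repressor of Cd4 in cells of the Cd8 lineage.

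Taking the gates pairwise, with 1.5-fold required in both libraries, 5 of the 9 genes were higher in macrophages than in B-1 cells (Tgfb1, Tgfb2, Ltbp1, Smad3 and Ski), where 25% of all genes were, and Smad7 was lower, as were 17% of genes. Over B-2 cells, 4 were higher in macrophages (Tgfb2, Ltbp1, Smad3 and Ski; background 26%) and Smad7 and Runx3 were lower (background 20.3%). Between B-1 and B-2 cells none of the 8 measured was higher in B-1 cells (background 3.55%) and Smad7 alone was lower (background 3.28%).

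Of the signal genes, Ski gave the genotype ratios farthest from 0 against their counting error, all under 1.5-fold. It was 0.40 (0.29 to 0.52) in macrophages and 0.39 (0.11 to 0.72) in B-1 cells. In B-2 cells it was 0.24 (-0.22 to 0.73) and in T cells 0.33 (-0.59 to 1.30). With stricter gates the B-1 ratio was 0.65 and the B-2 ratio -0.13, and without cells with cell cycle UMIs the T ratio was 0.65, so that the B-1 and T ratios went past 1.5-fold. Smad3 gave 0.12 (-0.02 to 0.27) in macrophages, 0.20 (-0.33 to 0.81) in B-1 and -0.54 (-1.49 to 0.21) in B-2 cells. Smad7 gave 0.36 (-0.09 to 1.58) in macrophages, -0.08 in B-1, -0.16 in B-2 and -0.25 in T cells, all with intervals across 0. Runx3 gave -0.05 (-0.25 to 0.14) in macrophages and -0.25 (-0.78 to 0.26) in T cells, and -0.04, 0.12 and 0.18 in B-1, B-2 and Cd209a cells, again across 0.

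Over all gates, 35 of the 54 ratios of the 9 genes had enough UMIs to be read. In macrophages 1 of 9 was called, higher, against 0.224% of all genes. In B-1 cells 1 of 9 and in B-2 cells 1 of 8 were called, both lower and both Ltbp1, against 3.3% and 3.7%. In T cells 1 of 6 was called, higher, against 7.15%. In Cd209a cells neither of the 2 measured was called, against backgrounds of 7.27% higher and 12.9% lower. In NK cells the 1 measured was not called, against 12.3% and 9.78%.

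**Figure D5:**
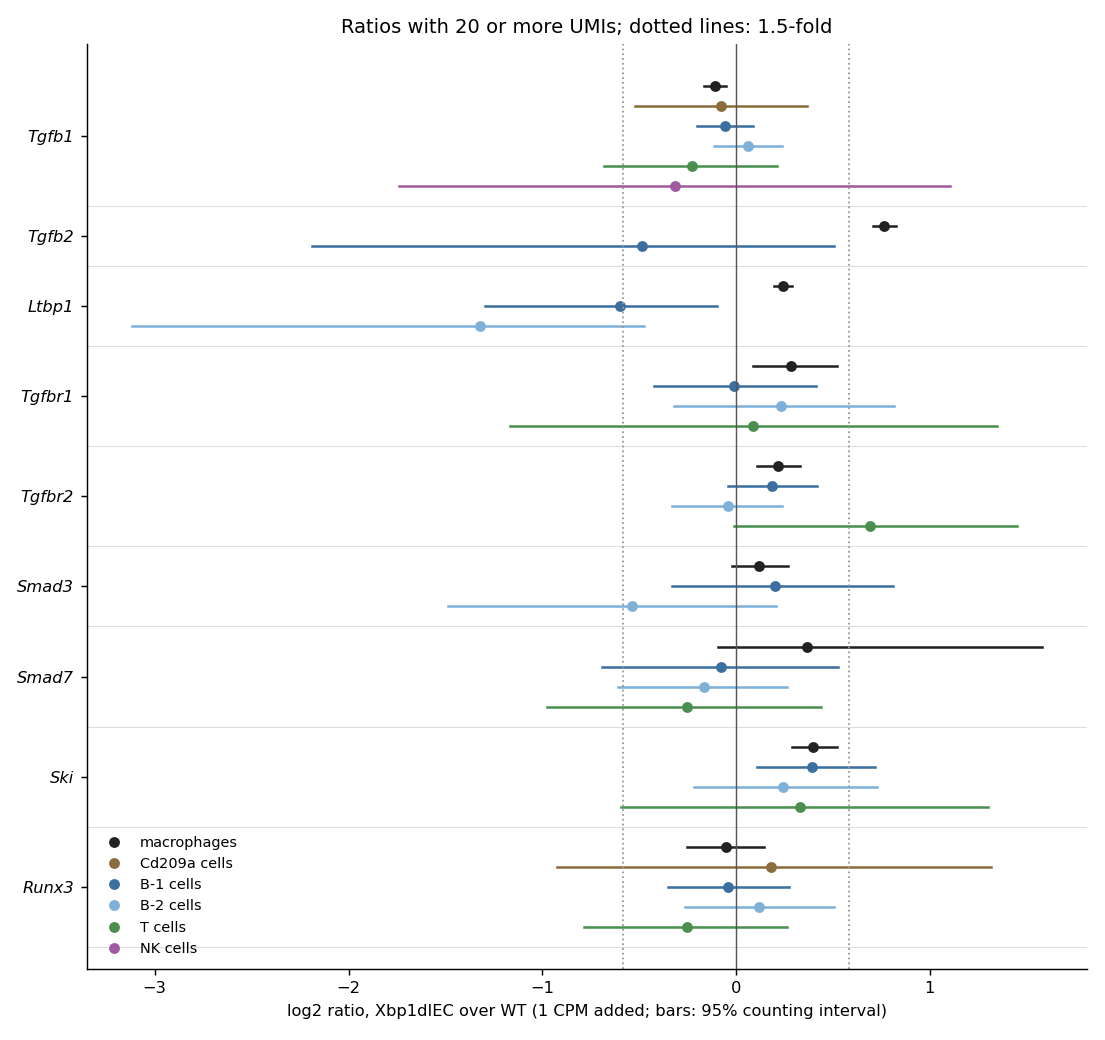
Log2 ratio of Xbp1dIEC over WT (horizontal axis, 1 CPM added) for each gene (rows) and gate (colours) with 20 or more UMIs; bars are 95% counting intervals and dotted lines mark 1.5-fold. Of the 35 points, 4 lie beyond the dotted lines, and Tgfb2 in macrophages is the one with a narrow interval.

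Of a further 67 pathway genes listed by role, 66 could be matched to 1 row each. In macrophages 55 were measured and none was called in either direction (26 of 11621 genes were higher and 269 lower), with a median of 0.10 against -0.05 for all genes. No test was run for a count of 0 with 1 library per genotype. The activation genes included Thbs1, which can release latent TGF-beta, at 541 CPM in WT and 692 CPM in Xbp1dIEC, a ratio of 0.35 (0.32 to 0.39). The integrin Itgb1 stood at 347 and 340 CPM. Of the latency genes, Emilin1 had 85.4 and 79.7 CPM and Nrros, which holds latent TGF-beta1 on myeloid cells, 84.2 and 78.7 CPM. Of the targets, Tgfbi had 238 and 220 CPM (-0.11), Id2 190 and 196 CPM (0.04) and Junb 196 and 164 CPM (-0.25). The mediator Smad4 had 21.7 and 26.2 CPM (0.26). In Fkbp1a, whose protein binds the type I receptor, macrophages had 248 and 232 CPM.

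In B-1 cells 36 of these pathway genes were measured. Of them 4 were higher (11.1%, against 3.36% of all genes) and 3 lower (8.33%, against 3.3%), with a median of 0.06 against -0.01 for all genes. Among the restraint genes, Pmepa1, a target that dampens Smad signalling, had 9.98 and 19.6 CPM (0.91, 0.55 to 1.41), Smurf1, a ubiquitin ligase for receptors and Smads, 2.66 and 5.19 CPM (0.76, 0.14 to 1.87), and Nedd4l 3.49 and 6.40 CPM (0.72, 0.15 to 1.65). Skil, a relative of Ski, was lower at 11.1 and 6.86 CPM (-0.63, -1.20 to -0.20). Id3, an inhibitor of basic helix-loop-helix factors, was lower at 28.3 and 15.4 CPM (-0.84, -1.19 to -0.56). The other calls were Acvrl1 (0.59, -0.39 to 2.86) and Tab1 (-0.81, -1.82 to -0.26). The B-1 check genes differed between libraries as well. Ahnak2 had 82.3 CPM in WT and 50.6 CPM in Xbp1dIEC, Fbxw13 15.6 and 29.2 CPM, and Spn 24.8 and 20.8 CPM. The part of the makeup of the B-1 gate in these calls was not tested.

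In B-2 cells 32 were measured, 1 higher and 1 lower (3.13% each, against 3.13% and 3.7% of all genes). Pmepa1 was higher there too, at 10.0 and 18.2 CPM (0.80, 0.29 to 1.44), and Itgav was lower (-0.72, -1.82 to 0.06). In T cells 19 were measured, 2 higher and 2 lower (10.5% each, against 7.15% and 7.02% of all genes). Id2 had 214 and 338 CPM (0.65, 0.41 to 0.90) and Jun 20 UMIs and 1. Ep300 (0.59, -0.41 to 1.70) and Id3 (-0.68, -1.87 to 0.34) had intervals across 0. In Cd209a cells 15 were measured, with Runx1 higher (19 and 31 UMIs) and Hpgd (19 and 6), Id3 (79 and 52) and Jun (16 and 11) lower, where 7.27% of all genes were called higher and 12.9% lower. In NK cells 4 were measured, with Itgb1 (7 and 34 UMIs) and Id2 (82 and 165) higher and Junb (14 and 9) lower, where 12.3% of all genes were called higher and 9.78% lower.

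Among the genes most like Tgfb2 over the 12 values (6 gates in 2 libraries) were, by Pearson r of log2(CPM + 1) among 4103 genes, Cald1 (0.99), C5ar1 (0.99), Msr1 (0.98), Cgnl1 (0.98) and Mertk (0.98). The 4103 genes had 50 CPM or more in their highest value, and gate and check markers were left out of them. Msr1 is a scavenger receptor and Mertk a receptor for dead cells. Between libraries they did not share the Tgfb2 difference in size: Cald1 had 141 and 133 CPM in macrophages, C5ar1 131 and 108 CPM, and Mertk 49.2 and 56.2 CPM. Ltbp1 was 68th by the same measure, with an r of 0.91. Most like Runx3 were Tes, Ms4a4b, Vps37b, Glipr2, Sec11a and Atp1b1, each with an r of 0.94. Ms4a4b stood at 1942 and 1584 CPM in T cells and 2676 and 2085 CPM in NK cells. The 12 values share their libraries and gates, so these r values are descriptions.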

How the data were processed

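The deposited files hold counts, as whole UMIs per gene and barcode without normalization. Per the submitters' processing notes the tools were Cell Ranger 2.2.0 and Seurat 2.3.0 and the build was mm10; how barcodes were filtered, and with which annotation, is not given in the sources used here. A barcode needed at least 500 UMIs, at least 200 genes and a mitochondrial share under 10%, and doublets called by scrublet in scanpy 1.11.5 at an expected rate of 5% were removed (140 WT, 113 Xbp1dIEC). Gates used marker UMIs, none of them of a pathway member, and UMIs were summed per gate and library. Intervals were exact (scipy 1.17.1), and the calculation was tested on simulated data. The simulated counts held counting error only, so they cannot show how the intervals fare with spread between cells, mice or pools. The 9 genes, the pathway lists, the gates and the rule for genes named were chosen with earlier results of these data known. Named were all 9 genes, pathway genes past 1.5-fold or among the 3 with the most UMIs of a list, and the 6 genes most like Tgfb2 and Runx3, of which 1 is not reported here. Ltbp4 and Itgam, whose symbols occur more than once, and Pclaf, which matched no row, were not used.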

Additional observations from a re-analysis of the deposited data

Results flagged for a closer look

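The Ltbp1 log2 ratio of Xbp1dIEC over WT was 0.24 in macrophages, -0.60 in B-1 cells and -1.32 in B-2 cells, so it had opposite signs in cells of the same pair of libraries. The difference between gates was not tested, with 1 library per genotype. Ltbp1 in B-1 and B-2 cells stood at 3.32% and 2.81% of its macrophage level in WT and at 1.73% and 0.74% in Xbp1dIEC. The 9 macrophage markers stood there at medians of 2.41% and 2.36% in WT and 1.60% and 1.61% in Xbp1dIEC. The part of free macrophage RNA in the B cell values was not tested.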

How the results depend on the processing

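No paired analysis was possible because there was 1 library per genotype, and for the same reason no library could be left out. Of 35 log2 ratios under 10 alternatives, 1 of them (barcodes found in both libraries left out) chosen after seeing the data, the ratio of Tgfb2 in macrophages was 0.70 with stricter gates and 0.69 with mitochondrial UMIs under 5%. Ltbp1 in macrophages was 0.18 with stricter gates, 0.30 scaled without immunoglobulin, ribosomal protein and mitochondrial genes, and 0.30 centred on the median of all genes. Ltbp1 in B-1 cells turned to 0.38 with stricter gates, in 322 and 570 cells, and the cause was not tested. Other B cell ratios also changed sign under an alternative. Tgfb2 in B-1 cells ran from -0.76 to 0.79. Tgfb1 ran from -0.16 to 0.13 in B-1 and from -0.14 to 0.12 in B-2 cells. Stricter gates kept the sign of 25 of the 35 ratios and gates after thinning that of 26. With a minimum of 100 UMIs, which tests fewer genes, the counts higher and lower were 14 and 41 in Cd209a (307 and 547 at 20 UMIs), 163 and 147 in B-1 (343 and 337), 54 and 61 in B-2 (288 and 340), 27 and 22 in T (458 and 450) and 3 and 4 in NK cells (138 and 110). Depth limits every NK value and most Cd209a values.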
